A study of Mus musculus with 11 samples.

Results

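Well-characterised transcriptional targets of the tumour suppressor p53 were followed in RNA-Seq libraries of mouse dorsal root ganglia (DRGs), the clusters of sensory neurons and glia beside the spinal cord. The 10 genes were *Cdkn1a*, *Mdm2*, *Ccng1*, *Bax*, *Bbc3*, *Trp53inp1*, *Sesn1*, *Eda2r*, *Gdf15* and *Zmat3*, chosen by name, and each matched 1 row of the deposited table of 36670 genes. Each of 11 libraries was made from DRGs of WT or *Gpr37l1* KO animals, either as controls (3 WT, 3 KO) or at 4 weeks of paclitaxel (PTX_4W in the labels; 3 WT, 2 KO). Paclitaxel, a cancer drug, stabilises microtubules and causes a painful neuropathy, and *Gpr37l1* encodes a G protein-coupled receptor of satellite glial cells, the glia that wrap sensory neurons. The study's methods name the KO strain B6;129S5-Gpr37l1tm1Lex/Mmucd and give a C57BL/6 background for the KO mice and their littermates. In each group replicate 3 was labelled female and the others male, so sex and that replicate number cannot be told apart. The methods give PTX by intraperitoneal route, as a single dose or as repeated doses, and adult mice of both sexes for behavior and biochemistry; which dosing and which age the sequenced mice had was not given in the sources used here. No agent is labelled for the controls.

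The transcription factor p53 is held at a low level in unstressed cells by MDM2, the ubiquitin ligase that marks it for degradation. DNA damage and other stresses release it, and it then binds paired half-sites near its target genes. Those targets arrest the cell cycle, start apoptosis through the mitochondria, repair DNA, adjust metabolism and, through *Mdm2* itself, switch p53 off again. In mature neurons, which do not divide, several of the same genes are also known to respond to axon injury. A raised target set is a common readout of p53 activity, with that limit in neurons. Its level after a chemotherapy agent is the question followed here.

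A p53 half-site is a 10-base motif that is nearly a palindrome, and a full site holds a pair of them. The windows from 250 bases before to 50 bases after each RefSeq start site (build GRCm38.p6) were searched for a half-site matching the consensus in full, with a second half-site of at most 1 mismatch within 13 bases counted as a pair. Because the consensus equals its own reverse complement, 1 search covers both strands. Of 32851 windows of that length, 8.36% held a half-site and 1.09% held a pair. RefSeq windows were found for 8 of the 10 genes (13 windows in all); *Trp53inp1* and *Zmat3* had no entry. A half-site lay in 5 of the 13 windows, those of *Cdkn1a*, *Ccng1*, *Bax*, *Mdm2* and *Sesn1*, and a pair lay in the windows of *Cdkn1a*, *Ccng1* and *Bax*. The pairs are shown because p53 is known to act through such elements, with every half-site of a pair in capitals and 30 bases on either side, 5′ to 3′ on the strand of the gene. *Cdkn1a* is on the plus strand at chr17:29090876-29090977, *Ccng1* on the minus strand at chr11:40755432-40755511 and *Bax* on the minus strand at chr7:45467060-45467140.
Cdkn1a: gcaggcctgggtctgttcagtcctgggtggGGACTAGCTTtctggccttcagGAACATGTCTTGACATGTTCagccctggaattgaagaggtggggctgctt
Ccng1: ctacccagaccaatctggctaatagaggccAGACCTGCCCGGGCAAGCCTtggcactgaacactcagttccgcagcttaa
Bax: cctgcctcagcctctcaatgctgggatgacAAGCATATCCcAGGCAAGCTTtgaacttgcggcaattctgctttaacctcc
*Cdkn1a* held 3 half-sites in 2 overlapping pairs: the last 2 half-sites had no spacer between them, and the first 2, which both match the consensus in full, had a spacer of 12 bases. The *Ccng1* pair also had no spacer, an arrangement found in 0.0883% of all windows, and that of *Bax* had a spacer of 1 base. The last half-site ended 31 bases before the upstream RefSeq start of *Cdkn1a*, 175 bases before the start of *Ccng1* and 191 bases before that of *Bax*. *Cdkn1a* had another RefSeq window, farther downstream at chr17:29093519-29093818, and it held no half-site. A match of letters is a description of the sequence and not a measured binding site, and sites farther from a start were not searched.

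The targeted gene followed its label. *Gpr37l1* lay between 14.6 and 35.7 FPKM (fragments scaled by gene length and library size) in the 6 WT libraries and between 0.21 and 1.15 FPKM in the 5 KO libraries. Estimated counts summed to 52735648 to 80348732 per library. Markers of sensory neurons, satellite glia and Schwann cells were abundant in every library. Skeletal muscle genes varied most among the marker lists, with summed levels of 2.88 to 537 FPKM, and the spinal cord list stood highest in the 2 KO PTX libraries, at 10.1 and 23.3 FPKM against 2.45 to 9.57 FPKM in the others. Of 36670 genes, 15087 had a mean of at least 0.5 FPKM and were tested with edgeR's quasi-likelihood test and Benjamini-Hochberg adjustment over all tested genes. The target genes passed that filter on their mean over all 11 libraries in 8 of 10 cases, and *Eda2r* and *Gdf15* did not.

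The 10 genes spanned a wide range of FPKM in DRGs. *Ccng1*, encoding cyclin G1, a partner of the phosphatase PP2A that acts back on MDM2, had the highest level, at 36.8 ± 3.67 FPKM (SD, n = 11), above 92.0% of the tested genes. *Cdkn1a*, encoding the cyclin-dependent kinase inhibitor p21, followed at 21.8 ± 5.98 FPKM (SD, n = 11) and lay below *Ccng1* in 10 of 11 libraries. *Bax*, encoding the pore-forming protein of the outer mitochondrial membrane, had 12.6 ± 2.08 FPKM (SD, n = 11), and *Sesn1*, encoding a sestrin that restrains mTOR signalling and oxidative stress, had 11.5 ± 1.09 FPKM (SD, n = 11). *Bax* was higher than *Sesn1* in 7 of 11 libraries, so the order of these neighbours did not hold across mice. *Zmat3*, encoding a zinc-finger RNA-binding protein, had 9.21 ± 0.73 FPKM (SD, n = 11) and was above *Mdm2*, at 8.02 ± 0.40 FPKM (SD, n = 11), in every library. *Trp53inp1*, whose product promotes autophagy and p53 activity, had 3.40 ± 0.36 FPKM (SD, n = 11). *Bbc3*, encoding the BH3-only cell death protein PUMA, was the lowest of the tested genes at 1.58 ± 0.29 FPKM (SD, n = 11), above 22.2% of all tested genes. The levels are per length, so these positions compare genes, and they describe whole ganglia: in bulk samples fewer cells of a type and less RNA per cell cannot be told apart.

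*Eda2r*, encoding a TNF receptor family member that binds ectodysplasin A2, had 0.07 to 0.20 FPKM on 31 to 74 estimated counts per library. *Gdf15*, encoding a secreted stress cytokine, had 0 to 0.11 FPKM on 0 to 18 counts per library. WT PTX mouse 2 and KO control 2 had 0 counts of *Gdf15*, each of which allows up to 3 counts. Fitted without a filter on low values, neither gene passed the threshold in any comparison. In WT mice the log2 fold change with PTX was -0.08 (SE 0.47) for *Eda2r* and 0.25 (SE 1.46) for *Gdf15*. The largest *Gdf15* values were those of KO against WT, at -1.51 (SE 1.16) over both treatments and -1.70 (SE 1.52) in controls, with unadjusted p of 0.214 and 0.283 from edgeR. Errors of this size leave several-fold differences in either direction undetectable for *Gdf15*.

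**Figure D1:**
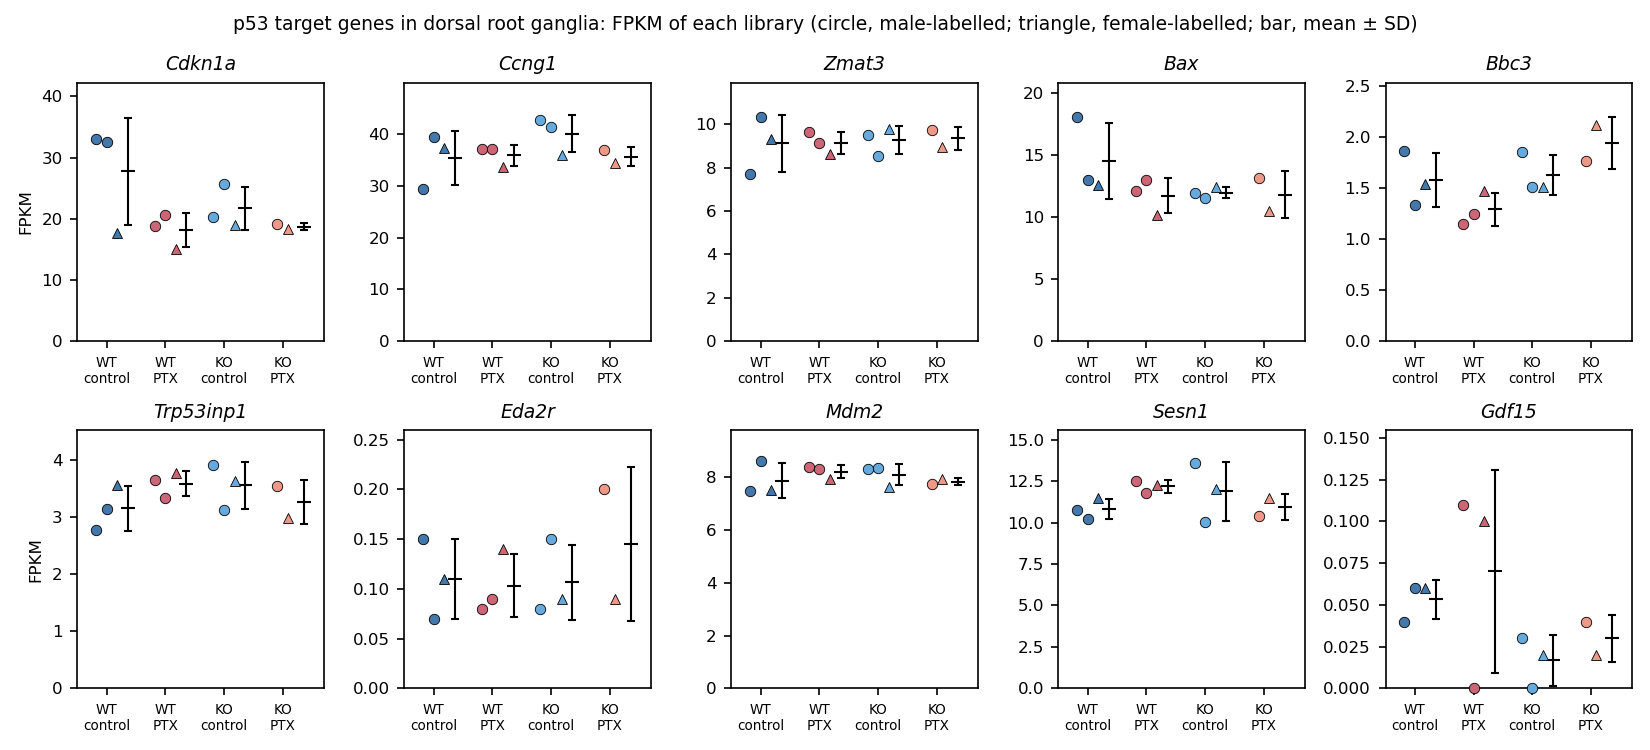
FPKM (y axis, from 0) of the 10 p53 target genes in each library, by group (x axis), with male-labelled mice as circles, female-labelled mice as triangles and the group mean ± SD as a bar. *Cdkn1a* stands out for its spread, with WT controls 1 and 2 near 33 FPKM and all other libraries between 15.0 and 25.7 FPKM, while *Mdm2* stayed between 7.46 and 8.62 FPKM.

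The genes differed in how much they varied among mice, whatever the group. The coefficient of variation of *Cdkn1a* over the 11 libraries was 27.4%, higher than that of 87.1% of tested genes, and those of *Bbc3* and *Bax* were higher than 76.1% and 71.4% of them. *Trp53inp1*, *Ccng1* and *Sesn1* lay in the middle (percentiles 44.3, 40.7 and 36.9), and *Zmat3* lay lower (percentile 23.7). *Mdm2*, the feedback inhibitor that p53 itself switches on, was among the steadiest genes of the tissue, with a percentile of 4.78. The median coefficient of variation of all tested genes was 11.3%.

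The members did not rise and fall as one. Among the 8 tested genes, 28 pairwise correlations of log2 CPM (library-scaled counts) were taken over the 11 libraries. The highest Pearson r was that of *Cdkn1a* and *Bax* (r = 0.71, Spearman rho = 0.58, n = 11). Next came *Mdm2* with *Ccng1* (r = 0.64, rho = 0.70) and *Trp53inp1* with *Sesn1* (r = 0.63, rho = 0.74). By rho the order of these pairs was reversed, so it depended on the measure. The lowest was that of *Cdkn1a* with *Trp53inp1* (r = -0.70, rho = -0.50). *Cdkn1a* and *Ccng1*, the pair of genes with an adjacent pair of half-sites in a start window, had r = 0.00 and a Spearman rho of 0.40. These values are descriptions over libraries that also differ in group, depth and tissue make-up.

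None of the 8 tested target genes passed the threshold in any of the 7 comparisons between groups. The first comparison asked whether the set was changed in WT mice 4 weeks after PTX. Among all tested genes 0.00663% passed the adjusted threshold there (1 gene), and 13.5% had an unadjusted p under 0.05. Of the 8 target genes, 2 had an unadjusted p under 0.05, *Cdkn1a* and *Bax*, both lower after PTX, against 6.87% of all tested genes in that direction. The median log2 fold change over the 8 genes was 0.01, beside -0.01 over all tested genes. DESeq2, run on the same counts, passed 1 of the 8 genes, *Cdkn1a*, and 2.05% of all tested genes. Libraries were taken as 1 mouse each, which the labels do not state, and p-values measure the spread between libraries.

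*Cdkn1a* (chr17:29090976-29100727) had 33.0, 32.5 and 17.7 FPKM in WT controls 1, 2 and 3. After PTX it had 18.9, 20.5 and 15.0 FPKM in WT mice 1, 2 and 3. KO controls 1, 2 and 3 had 20.3, 25.7 and 19.0 FPKM and KO PTX mice 2 and 3 had 19.2 and 18.3 FPKM. WT controls 1 and 2 were therefore the only libraries above 30 FPKM. WT control 3, the female-labelled one, lay within the range of the WT PTX mice, so the groups overlapped with the labels pooled. It was above the female-labelled WT PTX mouse 3. The log2 fold change with PTX in WT mice was -0.59 (SE 0.15, 95% CI -0.93 to -0.25; edgeR unadjusted p = 0.0032, adjusted p = 0.238). DESeq2 gave -0.59 with an adjusted p of 0.00945, so the call depends on the tool. In KO mice the log2 fold change with PTX was -0.13 (95% CI -0.51 to 0.26), and the difference between the genotypes was 0.46 (95% CI -0.05 to 0.97; edgeR adjusted p = 0.724). *Cdkn1a* overlaps AC167363.2 on the opposite strand.

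The size of the change in WT mice depended on which control libraries were kept. Without both WT controls 1 and 2, the log2 fold change of *Cdkn1a* was -0.13. This setting was chosen after the data were seen and left out the 2 highest controls, so a smaller change was built in. It leaves 1 WT control, the female-labelled one, assumed to vary like the other groups. Without WT control 3 the log2 fold change was -0.79 and passed (edgeR adjusted p = 0.0498). Without WT control 1 it was -0.50 and without WT control 2 it was -0.52. The sign between the genotypes depended on WT controls 1 and 2 as well. The log2 fold change of KO against WT controls was -0.32 (edgeR unadjusted p = 0.0613) with them and 0.13 without them. In each of the 4 groups the female-labelled mouse had the lowest *Cdkn1a*. In male-labelled libraries alone the log2 fold change with PTX in WT mice was -0.75. That setting was also chosen after the data were seen. It left out WT control 3, the lowest WT control, so a larger change was built in.

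The same 2 libraries were high in genes of axon injury. *Atf3*, a transcription factor that damaged sensory neurons switch on, had 34.8 and 60.2 FPKM in WT controls 1 and 2 and 2.79 FPKM in WT control 3. It had 5.09, 11.3 and 1.90 FPKM in WT PTX mice 1, 2 and 3, and 8.22, 19.4 and 2.09 FPKM in KO controls 1, 2 and 3. KO PTX mice 2 and 3 had 8.89 and 2.67 FPKM. KO control 2 came next after them for both *Atf3* and *Cdkn1a*, and the female-labelled mouse was lowest in each group for both. The 7 genes of the axon injury list summed to 324 and 581 FPKM in WT controls 1 and 2 and to 147 to 274 FPKM in the other 9 libraries. In WT mice after PTX, 6 of the 7 had an unadjusted p under 0.05, all lower, with a median log2 fold change of -1.40, and none passed the adjusted threshold (*Atf3*: -2.02, edgeR adjusted p = 0.238). The part of this state in the *Cdkn1a* values was not tested.

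The 5 tested genes most like *Cdkn1a* over the 11 libraries, by Pearson correlation of log2 CPM, were *Arhgef40* (r = 0.977), *Hspb1* (r = 0.972), *Tubb3* (r = 0.968), *Tkt* (r = 0.967) and *Slc3a2* (r = 0.966). *Hspb1* encodes a small heat shock protein abundant in sensory neurons, *Tubb3* a neuronal tubulin, *Tkt* the transketolase of the pentose phosphate pathway and *Slc3a2* the heavy chain of amino acid transporters. Without WT controls 1 and 2 these correlations were between 0.900 and 0.945 (n = 9). *Atf3*, looked at after its values were seen, ranked 32nd with r = 0.933, or 0.856 without the 2 libraries. *Gadd45a*, a p53 target of the wider pathway looked at in the same way, ranked 97th with r = 0.899, or 0.707 without the 2 libraries. *Phlda3*, another, had r = 0.576. Of the other 7 tested target genes the closest was *Bax* at 0.71. The top 5 were picked by correlation from all tested genes and those 7 were not, so the 2 sets of values are not on a par.

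**Figure D2:**
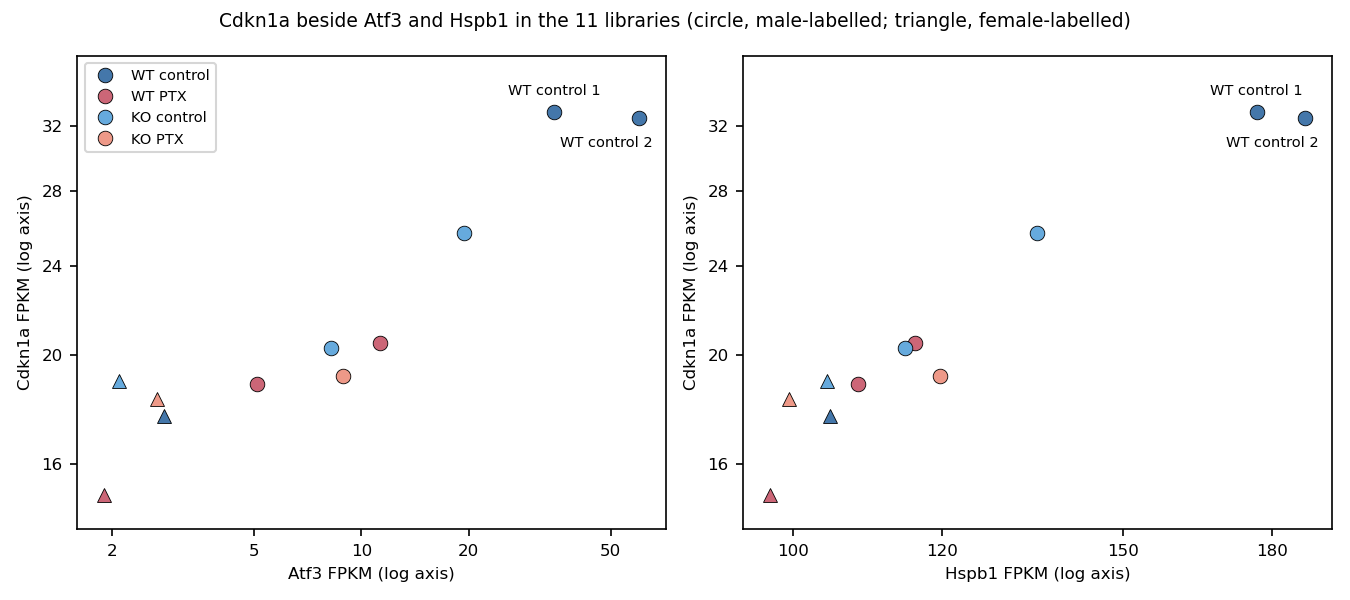
*Cdkn1a* (y axis, FPKM, log scale) against *Atf3* (left x axis) and *Hspb1* (right x axis), both in FPKM on log scales, with 1 point per library. The 2 WT controls named in the plot are highest on all axes, and KO control 2 is next at 25.7 FPKM of *Cdkn1a*.

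Other values moved with these libraries too. The macrophage list summed to 40.4 FPKM in both WT controls 1 and 2 and to 22.0 to 31.5 FPKM elsewhere, and 7 of its 8 genes were lower in WT mice after PTX at an unadjusted p under 0.05. The circadian clock list was lowest in the same 2 libraries, at 45.6 and 41.6 FPKM against 46.7 to 71.0 FPKM. WT control 1 was also the shallowest library. The part of these differences in the *Cdkn1a* and *Bax* values was not tested.

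The cell death genes *Bax* and *Bbc3* each had an unadjusted p under 0.05 in 1 comparison, and neither passed the adjusted threshold. *Bax* (chr7:45461697-45466898) had 18.06, 13.00 and 12.54 FPKM in WT controls 1, 2 and 3 and 12.07, 12.95 and 10.13 FPKM in WT PTX mice 1, 2 and 3. It had 11.92, 11.49 and 12.39 FPKM in KO controls 1, 2 and 3 and 13.13 and 10.45 FPKM in KO PTX mice 2 and 3. WT control 1 alone stood apart, with all other libraries between 10.1 and 13.1 FPKM. The log2 fold change with PTX in WT mice was -0.31 (95% CI -0.61 to -0.02; edgeR unadjusted p = 0.0397, adjusted p = 0.358). Without WT control 1 it was -0.15 (edgeR unadjusted p = 0.198), and without both WT controls 1 and 2 it was -0.20. All KO controls were below all WT controls (log2 fold change -0.27, edgeR unadjusted p = 0.0662), which was so for 4.73% of all tested genes, and without WT control 1 this log2 fold change was -0.11 (edgeR unadjusted p = 0.317). *Bax* overlaps Gm45808 on the same strand, so their shares of the counts are uncertain.

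*Bbc3* (chr7:16308393-16318205) had 1.86, 1.33 and 1.54 FPKM in WT controls 1, 2 and 3 and 1.15, 1.25 and 1.47 FPKM in WT PTX mice 1, 2 and 3. KO controls 1, 2 and 3 had 1.85, 1.51 and 1.51 FPKM and KO PTX mice 2 and 3 had 1.76 and 2.12 FPKM. After PTX both KO mice were above all 3 WT mice. The log2 fold change of KO against WT after PTX was 0.58 (SE 0.23, 95% CI 0.07 to 1.08; edgeR unadjusted p = 0.029, adjusted p = 0.993). It was the 1 of 8 target genes with an unadjusted p under 0.05 and a higher value there, beside 1.81% of all tested genes, and 10.7% of tested genes had both KO mice above all WT mice. Without PTX the difference between the genotypes was 0.04 (95% CI -0.41 to 0.49). The difference of the PTX change between genotypes was 0.53 (95% CI -0.15 to 1.21; edgeR adjusted p = 0.724). The 2 KO PTX libraries were also those with the highest sum of the 9 spinal cord markers, of which 4 were tested and 2, *Gfap* and *Slc1a2*, were higher in KO mice after PTX at an unadjusted p under 0.05. *Mog*, *Opalin*, *Olig1* and *Olig2* were at 0 in some library. The part of this RNA in the *Bbc3* value was not tested.

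The feedback genes stayed close to their WT level. *Mdm2* had 7.46, 8.62 and 7.51 FPKM in WT controls 1, 2 and 3 and 8.38, 8.32 and 7.92 FPKM in WT PTX mice 1, 2 and 3. It had 8.32, 8.34 and 7.64 FPKM in KO controls 1, 2 and 3 and 7.73 and 7.93 FPKM in KO PTX mice 2 and 3. No group stood apart. The change with PTX over both genotypes was 1.01-fold, with a 95% CI of 0.923-fold to 1.10-fold, and that of KO against WT over both treatments was 0.997-fold, with a 95% CI of 0.913-fold to 1.09-fold. A change of *Mdm2* beyond these bounds lay outside the interval. For *Ccng1* the corresponding intervals were 0.847-fold to 1.07-fold and 0.947-fold to 1.20-fold. *Ccng1* was lowest in WT control 1, at 29.4 FPKM, and highest in KO control 1, at 42.7 FPKM, and the other libraries lay between 33.6 and 41.4 FPKM.

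Of the genes of RNA binding, metabolism and autophagy, *Zmat3* was the steadiest. *Zmat3* ranged from 7.69 FPKM in WT control 1 to 10.3 FPKM in WT control 2, so the full range lay within 1 group, and its change with PTX over both genotypes was 1.00-fold (95% CI 0.896-fold to 1.13-fold). *Sesn1* had 10.8, 10.2 and 11.5 FPKM in WT controls 1, 2 and 3 and 12.5, 11.8 and 12.3 FPKM in WT PTX mice 1, 2 and 3. All 3 PTX mice were above all 3 controls, as was so for 6.81% of tested genes, with a log2 fold change of 0.17 (95% CI -0.05 to 0.39; edgeR unadjusted p = 0.123). KO controls 1, 2 and 3 had 13.60, 10.04 and 12.01 FPKM of *Sesn1* and KO PTX mice 2 and 3 had 10.39 and 11.51 FPKM. Both KO PTX mice were below all 3 WT PTX mice, as was so for 9.58% of tested genes, with a log2 fold change of -0.16 (95% CI -0.42 to 0.09). *Sesn1* overlaps 9930024M15Rik on the same strand. *Trp53inp1* lay between 2.77 FPKM in WT control 1 and 3.92 FPKM in KO control 1, and its log2 fold change with PTX was 0.18 (95% CI -0.08 to 0.44) in WT mice and -0.13 (95% CI -0.43 to 0.16) in KO mice. The difference of the PTX change between genotypes was -0.30 for *Sesn1* (95% CI -0.63 to 0.04; edgeR unadjusted p = 0.0763, adjusted p = 0.724) and -0.31 for *Trp53inp1* (95% CI -0.71 to 0.08; edgeR adjusted p = 0.724). These intervals are wide enough to hold both no difference and one of this size.

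**Figure D3:**
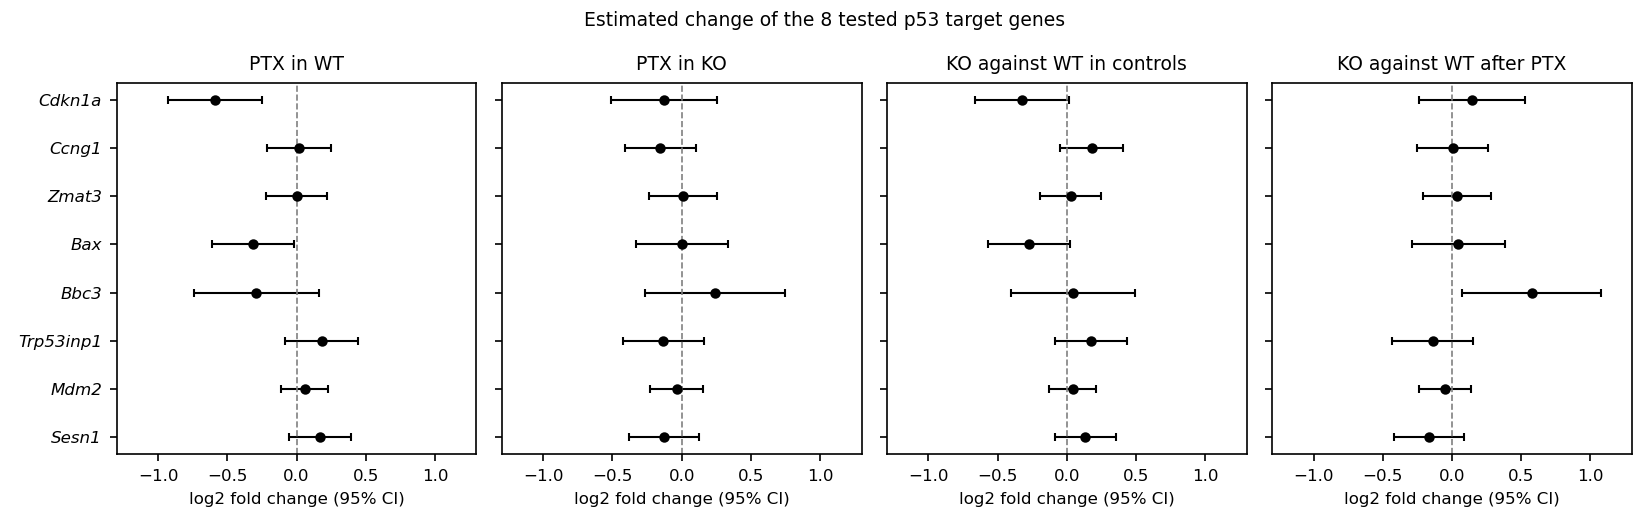
Log2 fold change (x axis) with its 95% CI for the 8 tested p53 target genes (y axis) in 4 comparisons, from the edgeR fit over all 11 libraries. The interval excludes 0 for *Cdkn1a* and *Bax* with PTX in WT mice and for *Bbc3* in KO against WT mice after PTX, and none of these passed the adjusted threshold.

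In the other comparisons the counts were as low. With PTX in KO mice 0 of 8 target genes passed the adjusted threshold and 0 had an unadjusted p under 0.05, beside 0.00663% and 4.32% of all tested genes, with 0.186% passed by DESeq2. With PTX over both genotypes 0 of 8 passed and 1, *Cdkn1a*, had an unadjusted p under 0.05 (log2 fold change -0.36, edgeR adjusted p = 0.443), beside 0.0133% and 9.36% of all tested genes (DESeq2, 0.829%). In KO against WT controls 0 of 8 passed and 0 had an unadjusted p under 0.05, beside 0.00663% and 7.54% of all tested genes (DESeq2, 0.278%). After PTX these shares of all tested genes were 0.0133% and 3.55% (DESeq2, 0.0597%), with 0 and 1 target gene. Over both treatments they were 0.0133% and 3.75% (DESeq2, 0.179%), with 0 and 0. For the difference of the PTX change between genotypes they were 0.00663% and 6.3% (DESeq2, 0.0795%), again with 0 and 0. DESeq2 passed no target gene in these 6 comparisons. The comparisons share libraries: the change with PTX in WT mice and that of KO against WT controls both use the 3 WT controls.

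Upstream of the targets, *Trp53*, which encodes p53, had 7.33, 6.53 and 6.32 FPKM in WT controls 1, 2 and 3 and 5.62, 6.51 and 6.41 FPKM in WT PTX mice 1, 2 and 3. It had 5.70, 6.24 and 6.11 FPKM in KO controls 1, 2 and 3 and 6.88 and 7.75 FPKM in KO PTX mice 2 and 3. Both KO PTX mice were above all 3 KO controls, as was so for 11.3% of tested genes. The log2 fold change with PTX in KO mice was 0.28 (95% CI 0.02 to 0.53; edgeR unadjusted p = 0.0373, adjusted p = 0.999), and the difference of the PTX change between genotypes was 0.40 (95% CI 0.06 to 0.75; edgeR unadjusted p = 0.0256, adjusted p = 0.724). The sum of the spinal cord markers moved with these libraries: it was 10.1 and 23.3 FPKM in KO PTX mice 2 and 3 against 2.86 to 4.54 FPKM in KO controls, all 4 tested markers were higher in both KO PTX mice than in every KO control, and 3 of the 4 had an unadjusted p under 0.05. WT control 1, next for this sum at 9.57 FPKM, had more *Trp53* than every library but KO PTX mouse 3. WT PTX mouse 3, which followed at 7.16 FPKM, had 6.41 FPKM of *Trp53*, the median of all libraries. The part of this RNA in the *Trp53* values was not tested. *Mdm4*, which encodes the partner of MDM2 that blocks p53 activity, was level, with a log2 fold change of 0.01 with PTX over both genotypes (95% CI -0.11 to 0.13). p53 is regulated mainly through its protein, which these libraries do not measure.

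The wider pathway was followed in 5 lists with 75 genes, of which 59 were tested, and none passed the edgeR threshold in any comparison. With PTX in WT mice 5 of the 59 were higher and 7 lower at an unadjusted p under 0.05, beside 6.59% and 6.87% of all tested genes, with a median log2 fold change of -0.10. Among the regulators of p53, 3 of 10 were higher and 0 lower. These were *Atm*, named after its values were seen, at a log2 fold change of 0.47, the related kinase gene *Atr* at 0.20 and *Usp7*, whose product removes ubiquitin from MDM2 and p53, at 0.17. Of the arrest and DNA repair targets 2 of 13 were higher and 2 lower, of the cell death targets 0 of 11 and 2, and of the metabolism, autophagy and stress targets 0 of 21 and 3. The cell cycle genes that p21 acts to repress were scarce, with 4 of 10 tested. With PTX all 4 were lower in WT mice (median log2 fold change -0.49) and all 4 higher in KO mice (median 0.45). The median difference of the PTX change between genotypes was 0.92. None of the 4 had an unadjusted p under 0.05 in any comparison. The summed level of the 10 genes was 2.46 to 7.70 FPKM, highest in WT control 1. *Birc5*, encoding survivin, had 0.34 to 1.03 FPKM and *Cdc20*, encoding an activator of the anaphase-promoting complex, 0.24 to 1.69 FPKM.

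*Gadd45a*, a growth arrest and DNA repair target, followed the pattern of *Cdkn1a*. It had 14.1, 20.7 and 7.50 FPKM in WT controls 1, 2 and 3 and 7.36, 8.04 and 7.93 FPKM in WT PTX mice 1, 2 and 3. KO controls 1, 2 and 3 had 8.32, 10.5 and 7.58 FPKM and KO PTX mice 2 and 3 had 7.29 and 6.47 FPKM. WT controls 1 and 2 and KO control 2 were the 3 highest, as for *Cdkn1a*. The log2 fold change with PTX in WT mice was -0.79 (95% CI -1.35 to -0.24, edgeR adjusted p = 0.276, DESeq2 adjusted p = 0.0367). It was -0.02 without WT controls 1 and 2. That setting was chosen after the data were seen and left out the 2 highest controls, so a smaller change was built in. *Btg2*, an antiproliferative target, had a log2 fold change of -0.30 with PTX over both genotypes (edgeR unadjusted p = 0.00948, adjusted p = 0.443).

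*Phlda3*, a p53 target that restrains AKT signalling, gave the clearest genotype difference of the pathway. It had 21.2, 17.5 and 16.6 FPKM in WT controls 1, 2 and 3 and 14.3, 16.7 and 12.4 FPKM in WT PTX mice 1, 2 and 3. KO controls 1, 2 and 3 had 12.2, 11.3 and 10.5 FPKM and KO PTX mice 2 and 3 had 11.8 and 9.48 FPKM. The log2 fold change with PTX in WT mice was -0.36 (edgeR unadjusted p = 0.0051, adjusted p = 0.244), so *Phlda3* did not differ by genotype alone. That of KO against WT controls was -0.70 (edgeR unadjusted p = 3.7e-05, adjusted p = 0.186). All 5 KO libraries were below all 6 WT libraries, as was so for 0.133% of tested genes. The log2 fold change of KO against WT over both treatments was -0.55 (SE 0.08, 95% CI -0.72 to -0.38; edgeR unadjusted p = 2.8e-05, adjusted p = 0.105). DESeq2 passed it, with an adjusted p of 6.2e-07, and edgeR passed it without WT control 2, with an adjusted p of 0.037. Without both WT controls 1 and 2 the value over both treatments was -0.55, and that with PTX in WT mice was -0.37. This setting was chosen after the data were seen and leaves 1 WT control. The part of the axon injury state in the *Phlda3* values was not tested.

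*Phlda3* (chr1:135766119-135769136) lies 0.598 Mb from *Gpr37l1* (chr1:135160234-135167681), the deleted gene, on the same chromosome. *Btg2* lies 1.08 Mb and *Mdm4* 2.13 Mb from it. *Btg2* had a log2 fold change of -0.25 in KO against WT over both treatments (edgeR unadjusted p = 0.0259) and *Mdm4* of -0.06 (edgeR unadjusted p = 0.294). The loss of *Gpr37l1* and the chromosome segment around the targeted allele cannot be told apart in these mice, whose strain name includes 129S5. None of the 10 target genes lies on that chromosome. The RefSeq window of *Phlda3* held no p53 half-site by the search used for the target genes.

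**Figure D4:**
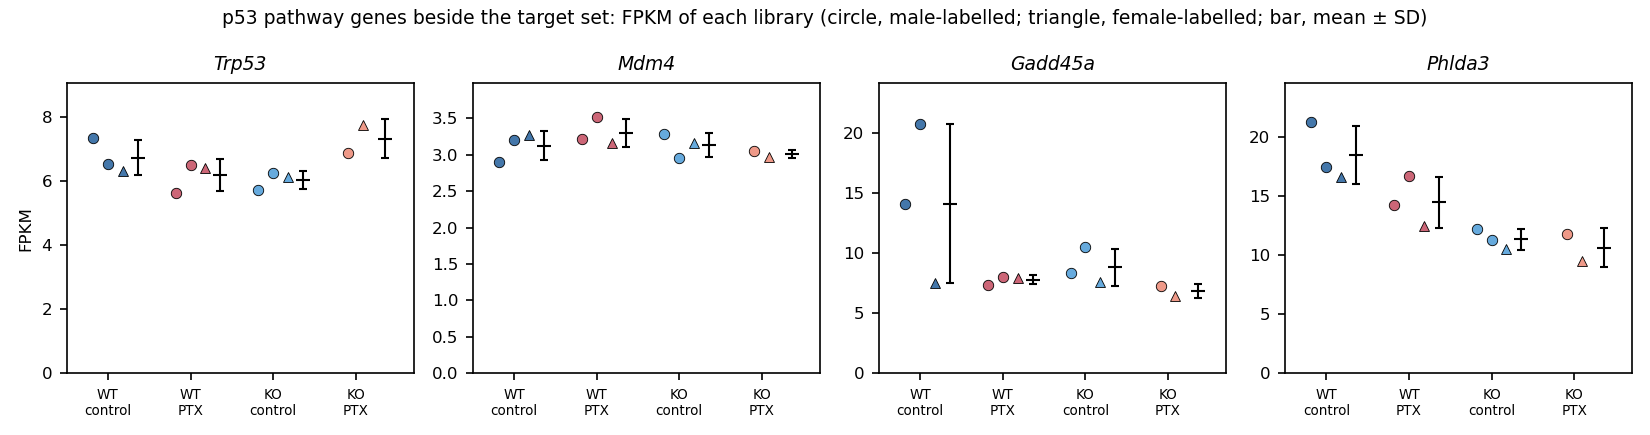
FPKM (y axis, from 0) of *Trp53*, *Mdm4*, *Gadd45a* and *Phlda3* in each library by group (x axis), with male-labelled mice as circles, female-labelled mice as triangles and the mean ± SD as a bar. *Phlda3* reaches at most 12.2 FPKM in the KO libraries and is at least 12.4 FPKM in the WT libraries, and *Gadd45a* is high in WT controls 1 and 2.

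The remaining named pathway genes gave differences that did not pass. *Sco2*, which encodes a factor for assembly of cytochrome c oxidase, had a log2 fold change of -1.14 in KO against WT controls (95% CI -1.80 to -0.47; edgeR unadjusted p = 0.0033, adjusted p = 0.657), with 1.57 to 1.99 FPKM in WT controls and 0.55 to 1.18 FPKM in KO controls. *Ephx1*, encoding the microsomal epoxide hydrolase, had a log2 fold change of 0.17 in KO against WT over both treatments (edgeR unadjusted p = 0.0224). *Triap1*, encoding an inhibitor of apoptosis, had -0.17 with PTX over both genotypes (edgeR unadjusted p = 0.0649). Over both treatments 1 of the 59 pathway genes was higher and 3 were lower in KO mice at an unadjusted p under 0.05. Of all tested genes 3.75% had such a p in either direction and 1.93% were lower.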

How the data were processed

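DRG libraries of poly(A) RNA were made with a stranded kit by the study's authors. The submitters' processing notes list cutadapt, FastQC, HISAT2 and StringTie, without versions, and build mm10. The authors deposited 1 table of FPKM values, scaled for gene length and library size, and of estimated counts without normalization. Groups, sex and replicate numbers came from the sample labels. For KO PTX mice titles and descriptions number the libraries differently, and the descriptions were used. Estimated counts, rounded, were tested with edgeR 4.0.16 (TMM, quasi-likelihood) in R 4.3.3 on 15087 genes with a mean of at least 0.5 FPKM, with all 11 libraries and sex as covariate, Benjamini-Hochberg adjustment and a threshold of 0.05. The fit was tested on simulated data. DESeq2 1.42.0 and limma 3.58.1 on log2(FPKM + 1) were alternatives. Confidence intervals of fold changes, at 95%, include the spread between libraries, and floors of 3 counts cover counting error only. The members, gene lists and tests were chosen with earlier results of these data known, so no list is independent evidence. Named genes were all 10 members, *Gpr37l1*, *Trp53*, *Mdm4*, *Phlda3*, the 2 pathway genes per list with the smallest unadjusted p over both treatment-wide comparisons, and the 5 genes most like the member with the largest range. Same-numbered mice are different animals, and whether the label's number pairs them was checked: their deviations from group means correlated at 0.11, 0.12 and 0.23 in KO against WT controls, and at -0.03, -0.16 and 0.04 with PTX in WT mice. Promoter sequences came from RefSeq (GRCm38.p6), and gene coordinates from the deposited table, which matched GENCODE M21 for all members.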

Additional observations from a re-analysis of the deposited data

How the results depend on the processing

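Over 21 alternative settings the 8 target genes kept a count of 0 past the threshold in all 7 comparisons, except with PTX in WT mice, where DESeq2 passed 1 and leaving out each replicate in turn gave 0 to 1, with *Cdkn1a* passing without WT control 3. Of the wider pathway, DESeq2 passed 1 gene with PTX in WT mice (*Gadd45a*) and 1 in KO against WT controls and over both treatments (*Phlda3*), and leaving out each replicate gave 0 to 1 over both treatments (*Phlda3* without WT control 2). The settings with male-labelled libraries alone and without both WT controls 1 and 2 were chosen after the data were seen. The 4 target gene values with an unadjusted p under 0.05 changed sign in 0 of 84 alternative values. Among named pathway genes 1 of 399 such values changed sign: *Gadd45a* in KO against WT controls was 0.16 without WT controls 1 and 2, against -0.63 with them. Over all tested genes DESeq2 passed 309 genes with PTX in WT mice against 1 with edgeR, and the cause was not tested. With the replicate number as a block, *Cdkn1a* with PTX in WT mice was -0.59 (edgeR adjusted p = 0.275), and the block changed no target gene or pathway call. In KO against WT controls, where deviations of same-numbered mice correlated weakly (0.11, 0.12 and 0.23), 0 of 8 target genes passed with the block. Groups of 2 or 3 mice limit the precision, and depth limits *Eda2r* and *Gdf15*.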

Other observations

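The female-labelled mouse had the lowest value of its group in all 4 groups for *Cdkn1a*, *Atf3* and *Phlda3*, and in 3 of 4 groups for *Ccng1*, *Bax* and *Gadd45a*. For *Bbc3* and *Sesn1* it was highest in 2 of 4 groups and lowest in 0. Since each group holds 1 such mouse, which is also replicate 3, this is given as a description and was not tested. The share of all tested genes with the same order was not counted, so these orders cannot be called particular to these genes.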
